A study of Mus musculus with 14 samples.

Results

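Mouse bone marrow cells that lacked Tet2, taken at plating 5 of a serial replating culture, were compared with freshly sorted Tet2-deficient LSK cells. Both groups are Tet2 KO on a mixed B6/129 background. The replated group (titled Tet2 KO CFU 5th) began as CD150+ LSK cells, and the sorted group is titled Tet2 KO LSK. The labels place the LSK sort 4 weeks after pIC injection, which switches on deletion in Mx+ mice through an interferon-responsive promoter, and give no such time for the replated cells. Each group had 2 of the 14 arrays of the series, chosen by these titles, so the comparison rests on 4 arrays and all 45037 probe sets, with 5 ng of RNA amplified per array. The other 10 arrays (WT LSK, and WT and KO common myeloid and granulocyte-macrophage progenitors, CMP and GMP) served to estimate the spread and to show levels. No replated WT array was analysed here, and neither the culture medium nor its cytokines are named in the labels. Whether both arrays of a group stem from separate mice or cultures is likewise unstated, so p-values here measure the spread between these samples, which may be technical.

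LSK cells lack lineage markers, carry c-Kit and Sca1 and include the blood stem cells, for which CD150, encoded by Slamf1, enriches. In serial replating, cells are grown as colonies, harvested and plated again, which tests how long colony-forming ability lasts. Tet2 oxidises methylated cytosine in DNA, and its loss is frequent in human myeloid neoplasms. Mast cells descend from marrow progenitors, depend on the c-Kit receptor and on the transcription factors Gata2 and Mitf, carry the high-affinity IgE receptor, and store proteases, histamine and serotonin on a matrix of heparin.

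Intensities are RMA values on a linear scale. The highest of 27 bacterial control probe sets, whose transcripts mouse RNA does not hold, lay between 20.8 and 27.8 on the 14 arrays and was taken as each array's floor. Where both arrays of the dimmer group lay below it, a fold is written as "at least" and computed against the floor. A gene is given by 1 probe set, the one with the highest mean, and "below the floor" refers to that probe set. Probe sets whose names end in _a_at, _s_at or _x_at are called suffixed, and an alternative setting left them all out. Genes with suffixed probe sets only have no value in that setting and drop out of its counts. On the leading principal component, with 41.2% of the variance, replated arrays lay at 208.7 and 210.3, apart from all sorted ones (-39.3 to -28.4). The Pearson correlation of log2 intensities between the 2 arrays was 0.9928 for replated cells, the highest of the 7 groups, and 0.9612 for KO LSK, the lowest. The groups also differed in sex-linked expression. Xist, which is expressed in female cells, read 6547 and 6634 in KO LSK and 18.4 and 21.9 in replated cells, and the Y-linked Eif2s3y read 8.22 and 6.47 against 2056 and 2083. The groups compared thus differ in the sex of the donor mice as their RNA shows it. WT LSK, with Xist at 29.0 and 23.9, was therefore used as another reference, and the 626 genes of X and Y (151 of them past the threshold) were left out of what follows. Effects of sex on autosomal genes cannot be told apart from those of culture in the comparison with KO LSK. Against WT LSK, replated cells differ in Tet2 genotype as well as in culture, and these effects cannot be told apart either. Of the markers of the sorted population, Kit, Cd34, Flt3 and Slamf1 were above the floor in KO LSK. The myeloid lineage marker Itgam was below it on all 14 arrays (8.18 to 13.2), so it cannot show whether lineage cells were present. Other lineage genes were bright in KO LSK, such as S100a9 of late neutrophils (6534 and 8508) and Igk of antibody-forming cells (8500 and 10129).

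The array carries 2 probe sets for Tet2, and since it is not known here whether either lies within the deletion, their levels are no check of the genotype. The brighter read 855 and 1859 in KO LSK and 1786 and 1823 in replated cells, and the log2 difference was 0.52 ± 0.39 (SE, adjusted p = 0.454 in limma). The dimmer read 17.0 and 87.2 in KO LSK and 779.8 and 795.8 in replated cells, a rise of 4.35 ± 0.66 (adjusted p = 0.00154). The probe sets thus differ, with overlapping groups at the brighter and separate groups at the dimmer.

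The 17404 genes with a known chromosome other than X and Y are called autosomal here, although 1 of them is mitochondrial. Of these genes, 1739 were higher in replated KO cells than in KO LSK (9.99%) and 2298 were lower (13.2%). The threshold was an adjusted p below 0.05 in limma's moderated test on log2 intensities. The change was at least 2-fold for 1269 and 1804 of them and at least 16-fold for 191 and 342. Among the genes that were higher, 339 lay below the floor on both KO LSK arrays, and among those that were lower, 463 lay below it on both replated arrays. Another probe set of the gene was above the floor on 1 or both of these arrays for 7 of the 339 and 55 of the 463. Of the genes named below, Enah is among the 7, and Aff3, Bcat1, Csf1r, Egln3, Igk, Irf8, Kbtbd11, Prdm16, Sox4, Vcam1 and Xaf1 are among the 55, so their bounds and low values hold for 1 probe set. Each gene list below is to be read against the 9.99% higher and 13.2% lower among all genes. The median difference over all autosomal genes was 0.007 on the log2 scale. Without replated replicate 1 the counts were 1073 and 1555, and without replicate 2 they were 1052 and 1432.

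**Figure D1:**
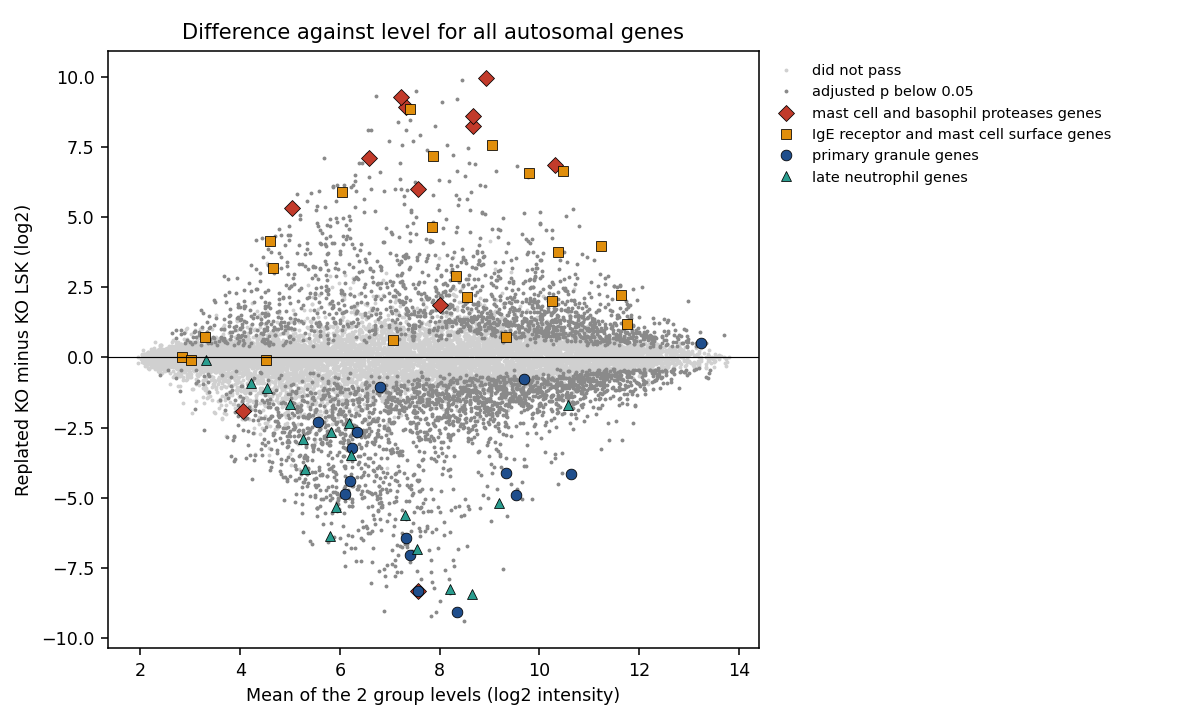
Log2 difference, replated KO minus KO LSK (vertical axis), against the mean of both group levels (horizontal axis, log2 intensity) for 17404 autosomal genes, 1 point per gene, with 4 gene lists marked. Of 12 measured mast cell and basophil proteases 10 lie among the genes that rose, and of 15 primary granule genes 14 lie among those that fell.

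Of 12 measured proteases that mast cells and basophils store in their granules, 10 were higher and 1 was lower, against 9.99% and 13.2% of all genes. The lower member was Ctsg, which is also in the primary granule list. The median log2 difference of the 12 proteases was 6.98 (6.43 with values below the floor raised to it). Cma1, the mast cell chymase, read 15.9 and 15.3 in KO LSK and 15287 and 15568 in replated cells. It was the largest rise among all autosomal genes named by the rule, at least 716-fold (9.95 ± 0.18, adjusted p = 5.1e-09). Mcpt4, a chymase of connective tissue mast cells, went from 5.87 and 6.16 to 3671 and 3725 (at least 172-fold). Mcpt2, a chymase of mucosal mast cells, went from 6.80 and 7.80 to 3533 and 3554 (at least 164.5-fold). The probe sets of Mcpt4 and Mcpt2 were below the floor on both KO LSK arrays and bright on the replated ones.

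Tpsb2, which encodes a mast cell tryptase, read 28.8 and 18.9 in KO LSK, the latter below the floor, and 7293 and 6997 in replated cells, 306-fold more (8.26 ± 0.34, adjusted p = 3.38e-07). Cpa3, the mast cell carboxypeptidase, read 144 and 98.0 against 13438 and 14150, a 116-fold rise. It was on at a lower level in all sorted groups, between 98.0 and 301 in LSK and between 748 and 1453 in CMP and GMP. The least changed of the proteases that rose was Mcpt8, a protease of basophils, at 113 and 163 in KO LSK and 496 and 485 in replated cells (1.85, adjusted p = 0.000824).

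The chymases lie side by side on chromosome 14 with neutrophil cathepsin G and the granzymes, and the genes of this locus went in different directions. In RefSeq's gene order Cma1, Mcpt1, Mcpt2, Mcpt4 and Mcpt8, all of which rose, are followed by Ctsg (Cma2 and Mcpt9, which lie among them, are not named in the annotation used here). Ctsg, a serine protease of neutrophil primary granules, read 3044 and 3807 in KO LSK and 10.5 and 10.7 in replated cells (-8.33 ± 0.20, adjusted p = 1.49e-08). Beyond it, Gzme, Gzmd, Gzmg, Gzmn, Gzmf and Gzmc lay below the floor on all 4 arrays (3.49 to 11.0). At the far end Gzmb, the granzyme of cytotoxic lymphocytes that mast cells also make, read 18.7 and 22.8 against 7697 and 8206. Probe sets for close relatives such as Mcpt1, Mcpt2 and Mcpt4 can share target sequence, and how far they do was not tested.

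**Figure D2:**
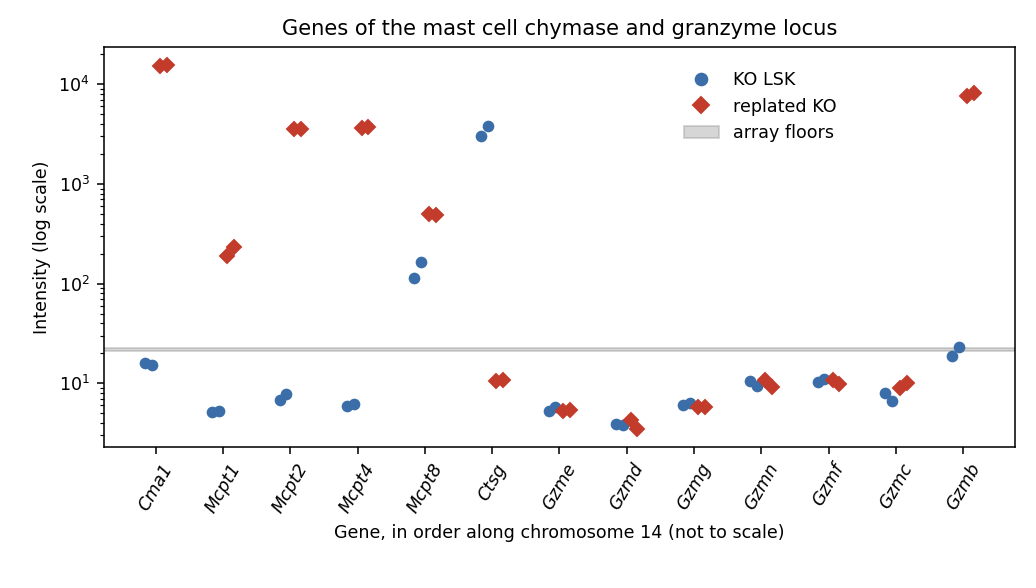
Intensity (log scale) on the 2 KO LSK and 2 replated KO arrays for 13 genes of the chymase and granzyme locus in their order along chromosome 14, with the range of the 4 arrays' floors as a grey band. Ctsg (3044 and 3807) is above the floor only in KO LSK. Before it lie Cma1, Mcpt1, Mcpt2 and Mcpt4, above the floor only in replated cells, and Mcpt8, above it in both groups. After it lie 6 granzymes that are below the floor in both groups.

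Of 22 measured genes for the IgE receptor and other surface proteins of mast cells, 16 were higher, 0 lower and 6 did not pass, 3 of them below the floor on all 4 arrays, with a median of 3.05 (2.24 with the floor). Fcer1a, the IgE-binding alpha chain, read 125 and 160 in KO LSK and 13629 and 14796 in replated cells (6.65 ± 0.54, adjusted p = 3.26e-05). Ms4a2, the signalling beta chain, read 50.4 and 28.8 against 7214 and 7369, a 191-fold rise. Fcer1g, the gamma chain that myeloid cells share among Fc receptors, was already at 1811 and 1200 in KO LSK and reached 6653 and 7124. All 3 chains passed the threshold. Fcer1a differed among the sorted groups too, from 6.32 and 24.7 in WT LSK to 745 and 823 in KO CMP, and no sorted array exceeded 823.

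Among other receptors of this list, Cd200r3, an activating receptor of mast cells and basophils, rose from 10.03 and 6.16 to 3559 and 3742 (at least 169-fold). Cd200r4 rose from 21.6 and 17.4 to 2254.5 and 3482 (at least 130.0-fold). Kit, the stem cell factor receptor by which LSK cells are sorted and on which mast cells depend, rose from 2084 and 2497 to 4913 and 5568 (1.20 ± 0.19, adjusted p = 0.00217). Enpp3, a basophil and mast cell ectoenzyme, was below the floor on all 4 arrays (6.55 to 7.88), as was Cd226. A probe set without signal in either group cannot tell a silent gene from a probe set that does not respond.

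The promoters of the carboxypeptidase and of both IgE receptor chains are shown because these genes rose and hold the GATA motif AGATAA, or TTATCT on the other strand, which is written in capitals. The windows run from 250 bases before to 50 after the start site in RefSeq's GRCm38.p6, 5′ to 3′ on the gene's strand: Cpa3 at chr3:20242132-20242431, Fcer1a at chr1:173227180-173227479 and Ms4a2 at chr19:11623670-11623969, all on the minus strand.
Cpa3: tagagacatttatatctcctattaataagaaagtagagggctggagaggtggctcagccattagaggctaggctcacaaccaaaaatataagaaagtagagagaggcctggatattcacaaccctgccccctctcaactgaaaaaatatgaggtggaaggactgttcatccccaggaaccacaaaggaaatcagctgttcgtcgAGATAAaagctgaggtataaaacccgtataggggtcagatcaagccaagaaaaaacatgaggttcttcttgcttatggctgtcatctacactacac
Fcer1a: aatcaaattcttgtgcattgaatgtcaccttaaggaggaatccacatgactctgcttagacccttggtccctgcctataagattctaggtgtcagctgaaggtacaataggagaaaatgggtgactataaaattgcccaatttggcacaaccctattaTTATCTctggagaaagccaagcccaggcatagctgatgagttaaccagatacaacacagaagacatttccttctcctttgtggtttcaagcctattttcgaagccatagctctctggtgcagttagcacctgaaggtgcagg
Ms4a2: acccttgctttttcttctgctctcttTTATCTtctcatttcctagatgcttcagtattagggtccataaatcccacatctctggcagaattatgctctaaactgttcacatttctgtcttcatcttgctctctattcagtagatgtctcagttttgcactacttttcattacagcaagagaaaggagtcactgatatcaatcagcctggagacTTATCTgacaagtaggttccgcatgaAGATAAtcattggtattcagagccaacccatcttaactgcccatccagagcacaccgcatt
The motif begins at -46 from the start site in Cpa3 and at -92 in Fcer1a, and Ms4a2 holds it 3 times. Among 13832 promoters of tested genes 7.98% held it, as did 6.60% of those of genes that were higher and 7.61% of those that were lower. In the list of IgE receptor and mast cell surface genes it was present in 5 of 17 promoters and among the proteases in 2 of 9. Of mast cell mediator enzymes 1 of 15 held it, of late neutrophil genes 3 of 16 and of primary granule genes 0 of 13. Cma1, Mcpt4, Mcpt8, Gzmb, Tph1 and Ctsg had none in this window. The E-box CACGTG or CATGTG, a motif of Mitf-type factors, was found in 18.2% of all promoters, 18.2% of those higher and 18.4% of those lower. The CRE motif TGACGTCA was in 2.75%, 2.15% and 2.92%, and the STAT motif TTCNNNGAA in 7.34%, 7.04% and 7.67%, both strands read for each. The shares over all changed genes thus lay close to that of all promoters, and these counts describe letters, not binding.

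Enzymes that make mast cell mediators were higher for 11 of 16 measured genes and lower for 0, with a median of 1.72. Tph1, the first enzyme of serotonin synthesis outside the brain, rose from 13.99 and 9.10 to 9540 and 12197 (at least 501-fold). Hdc, which makes histamine, read 22.1 and 109.7 in KO LSK and 966.9 and 854.8 in replated cells (4.21 ± 0.95, adjusted p = 0.013), the KO LSK arrays being far apart. Slc18a2, the transporter that loads both amines into granules, rose from 904 and 1024 to 6476 and 7151.

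Among lipid mediator genes, Alox5, which starts leukotriene synthesis, rose from 25.4 and 42.3 to 3096 and 3465 (99.98-fold). Hpgds, the prostaglandin D2 synthase of haematopoietic cells, read 12.8 and 26.9 against 1263 and 1133. Cyp11a1, the side-chain cleavage enzyme that starts steroid synthesis, rose from 25.9 and 32.2 to 4913 and 5170 (174-fold), while of its 2 other probe sets 1 was above the floor and 0 rose at p below 0.05. Ptgs2, the inducible cyclooxygenase, did not pass (-1.81 ± 1.04, adjusted p = 0.30). In the fit of the 4 arrays alone 7 of the list were higher, and without replated replicate 1 or 2 it was 7 and 6.

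Heparin and proteoglycan synthesis moved less evenly. Of 18 measured genes 8 were higher (44.4%, against 9.99% of all genes) and 2 lower (11.1%, against 13.2%), with a median of 0.58. Papss2, which makes the sulfate donor, rose from 249 and 276 to 10037 and 10545, and Ndst2, the N-deacetylase/N-sulfotransferase on which mast cell heparin depends, from 198 and 150 to 6291 and 6141 (5.17 ± 0.54, adjusted p = 0.00017). Ndst3 rose from below the floor (5.88 and 7.48) to 189 and 222. Glce, the epimerase of the chain, fell from 2837 and 3383 to 1560 and 1514 at its brightest probe set, but the mean of its probe sets did not pass (-0.41, adjusted p = 0.30). With a 2-fold minimum the number higher was 4, and with the 4 arrays alone it was 5. Srgn, the core protein that carries heparin in granules and is bright in all arrays, read 7936 and 8235 against 11208 and 11848 (0.51 ± 0.11, adjusted p = 0.00978, and 0.069 without replated replicate 2).

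Several of the largest rises lay outside the lists. Ptprg, a receptor tyrosine phosphatase, went from 6.97 and 6.84 to 4396 and 5607 (at least 230-fold). Rgs13, a regulator that limits G protein signalling in mast cells and B cells, went from 4.47 and 3.93 to 2302 and 3141 (at least 125-fold), and Pla2g7, the platelet-activating factor acetylhydrolase, from 10.2 and 17.4 to 6268 and 9923 (at least 366-fold). Enah, an actin regulator of the Ena/VASP family, rose at least 290.0-fold. C3ar1, the receptor for complement C3a, rose at least 122-fold, with 6.76 and 9.28 against 2318 and 2976. Nrip3, Styk1 and Fam155a completed the 15 largest rises, each from below the floor on both KO LSK arrays. Their levels in replated cells lay between 2448 and 4180.

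**Figure D3:**
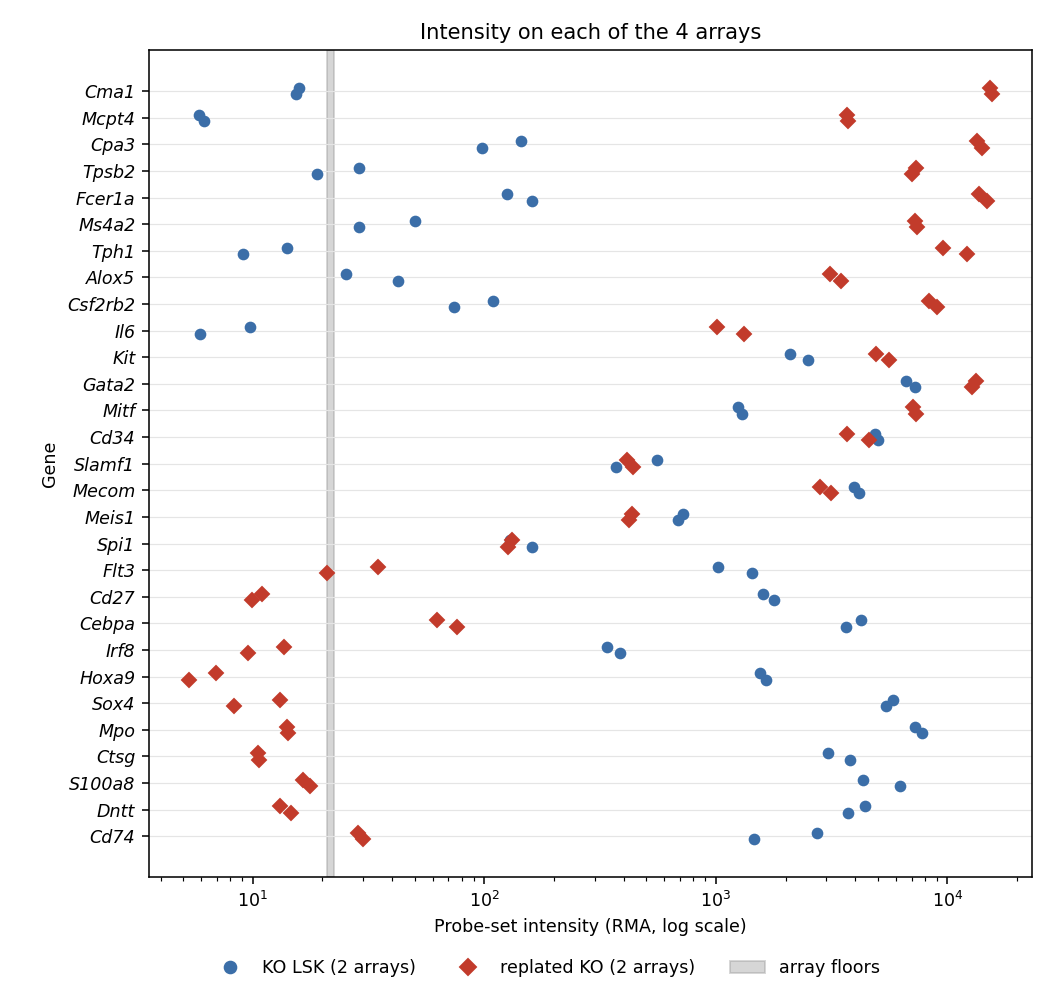
Intensity on a log scale of 29 genes on each of 4 arrays, with circles for KO LSK, diamonds for replated KO and a grey band for the range of the arrays' floors. Mast cell genes sit far to the right in replated cells, Cd34, Slamf1, Mecom, Meis1 and Spi1 did not pass the threshold, and Cd27, Irf8, Hoxa9, Sox4, Mpo, Ctsg, S100a8 and Dntt lie below the floor on both replated arrays at the probe set shown, whereas Sox4 and Irf8 have others above it on at least 1 of them.

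Cytokine genes moved both ways, with 8 of 26 measured higher and 5 lower (median 0.10). Il6 rose from 9.74 and 5.93 to 1011 and 1326 (at least 53.7-fold), Lif from 17.3 and 24.4 to 1470 and 1145.5, and Ccl2, a chemoattractant of monocytes, from 32.6 and 30.5 to 1851 and 1605. Il4 was higher as well (2.61 ± 0.43, adjusted p = 0.0025), whereas Il13 (0.56) and Il3 (0.26) did not pass and lay below the floor on all 4 arrays. The macrophage inflammatory chemokines went the other way: Ccl3 fell from 355 and 527 to 13.9 and 12.55, Ccl4 from 520.4 and 1388 to 54.7 and 31.6, and Ccl9 from 3741 and 3803 to 162 and 186.

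Cytokine receptors were split as well, 10 of 29 higher and 11 lower (median 0.70). Csf2rb, the common beta chain of the receptors for IL-3, IL-5 and GM-CSF, rose from 573 and 656 to 8971 and 10086 (3.96 ± 0.20, adjusted p = 1.33e-06). Its mouse-specific relative Csf2rb2, which serves IL-3 alone, rose from 109 and 74.1 to 8303 and 8982, and how far the probes of this near-identical pair cross-react was not tested. Il10ra rose from 25.4 and 17.3 to 302 and 403. The alpha chain Il3ra did not pass (0.63 ± 0.27, adjusted p = 0.15). Receptors that direct cells to other fates fell: Csf1r, the macrophage growth factor receptor, from 1010 and 190.2 to 8.75 and 6.14, Flt3 from 1017 and 1437 to 34.6 and 21.0, and Il7r, needed for lymphoid growth, from 141 and 135 to 9.54 and 4.88. Il1r1, the signalling IL-1 receptor, fell 58.6-fold.

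Stem cell regulators did not act as a block. Of 22 measured transcription regulators of stem cells, 12 were lower and 1 higher, with a median of -1.17. Sox4, a progenitor transcription factor, fell from 5818 and 5425 to 13.1 and 8.26 (at least 259-fold). Hlf, which marks stem cells, fell from 3355 and 4349 to 31.6 and 42.1 (-6.71 ± 0.42, adjusted p = 5.16e-06), and Prdm16, a regulator of stem cell maintenance, from 1230 and 1663 to 9.65 and 15.5. Mecom, which encodes the stem cell factor Evi1, stayed bright: 3958 and 4167 in KO LSK and 2805 and 3155 in replated cells (-0.45 ± 0.64, adjusted p = 0.721). In CMP Mecom read 835 to 2811, highest in KO CMP replicate 2, and in GMP 63.8 to 524. Meis1, a partner of Hox proteins, read 719 and 686 against 434 and 421 (-0.72 ± 0.80, adjusted p = 0.636), though another of its probe sets fell by 1.67 ± 0.37 (adjusted p = 0.0125). Tal1 was the member that was higher (0.83 ± 0.23, adjusted p = 0.0305), a call that ended without KO LSK replicate 2 or either replated array, with adjusted p up to 0.143.

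The Hoxa cluster showed 3 of 9 measured genes lower and 0 higher. Hoxa9, which sustains self-renewal in stem cells and leukaemia, fell from 1553 and 1640 to 6.91 and 5.31 (-8.04 ± 0.21, adjusted p = 2.1e-08), below the floor. On the 12 sorted arrays Hoxa9 read between 395.8 and 1640. Hoxa10 fell from 2460.5 and 1669 to 8.91 and 9.67 (at least 93.3-fold). Hoxa3 read 140 and 441 against 28.1 and 46.3 (adjusted p = 0.0286) and did not pass without KO LSK replicate 2 or either replated array (up to 0.163). The other 6 did not pass, and 3 of the 9 lay below the floor on all 4 arrays.

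Surface markers of stem and early progenitor cells were lower for 13 of 21 measured genes and higher for 1, which was Kit (median -2.69). Cd27, a TNF receptor family member of multipotent progenitors, fell from 1595 and 1784 to 10.9 and 9.92. Procr, a marker of stem cells, fell from 386 and 562 to 15.2 and 16.6, and Flt3 fell 44.9-fold with replated replicate 2 below the floor. Cd34 remained high, at 4866 and 4990 in KO LSK and 3673 and 4564 in replated cells (-0.27 ± 0.15, adjusted p = 0.276). Slamf1, the CD150 gene by which the plated cells were sorted, read 557 and 370.1 against 414 and 441 (-0.09 ± 0.52, adjusted p = 0.943), with overlapping groups. Cd34 is known on mast cells too. Ly6a, which encodes Sca1, is not named in the annotation used here. With suffixed probe sets left out, 8 of the list were lower, but members with no others, such as Procr, then had no value.

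Imprinted growth genes, which are high in long-term stem cells, were lower for 5 of 19 measured and higher for 1, with 8 of them below the floor on all 4 arrays. Grb10, an adaptor that restrains growth factor signalling, fell from 3608 and 3578 to 332 and 358 (-3.38 ± 0.15, adjusted p = 6.92e-07), and Igf2r from 414 and 429 to 28.2 and 29.8. Ndn passed narrowly (adjusted p = 0.0481). It did not pass without any 1 of the 4 arrays, nor with WT LSK as the reference. Gnas was higher at its brightest probe set (0.74 ± 0.14, adjusted p = 0.00608) but -0.18 (adjusted p = 0.592) as the mean of its 5 probe sets. Cdkn1c, the imprinted cell cycle inhibitor of quiescent stem cells, lay below the floor on all 4 arrays. Without KO LSK replicate 1 or either replated array 3 of the list were lower.

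Of 15 measured primary granule genes 14 were lower and 1, Srgn, was higher, and the median was -4.15. Mpo, the myeloperoxidase that defines early granulocytes, read 7229 and 7735 in KO LSK and 14.1 and 14.2 in replated cells (-9.05 ± 0.11, adjusted p = 1.52e-09). Mpo read 6472 or more on all 12 sorted arrays and lay below the floor on both replated ones. Prtn3, a further serine protease of these granules, fell from 2027 and 1856 to 19.2 and 11.2, and Elane, neutrophil elastase, from 1357 and 1640 to 14.8 and 19.9. Late neutrophil genes were lower for 12 of 17 and higher for 0 (median -3.47). S100a9 and S100a8, the calprotectin subunits, went from 6534 and 8508 to 22.4 and 21.3 and from 4311 and 6211 to 16.4 and 17.7. Ngp, a secondary granule protein, fell at least 91.2-fold. The sum of the 17 intensities lay between 21169 and 27248 on KO LSK arrays and between 1138 and 1257 on replated arrays.

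Monocyte and macrophage genes were lower for 10 of 25 and higher for 3 (median -0.79), and their summed level was 6966 to 8197 in KO LSK and 4765 to 5160 in replated cells. The share of this list that was higher lay near the 9.99% of all genes, and the share lower lay above 13.2%. Ms4a6c fell from 1627 and 1691 to 12.2 and 12.8 and Ctss, the lysosomal cathepsin S of antigen-presenting cells, from 1681 and 1271 to 19.7 and 20.3. The defining markers Cd14 and Adgre1 were below the floor on both replated arrays, as was Csf1r at 2 of its 3 probe sets, while the third fell from 145.8 and 68.0 to 50.8 and 32.8 (-1.29 ± 0.36, adjusted p = 0.0373). Lgals3, a lectin of macrophages and mast cells, rose from 98.8 and 69.9 to 1817 and 1879 (4.47 ± 0.32, adjusted p = 1.47e-05), and Vcan and Cx3cr1 reached 308 and 301 and 277 and 304. Of 13 dendritic cell genes 4 were lower (30.8%, against 13.2% of all genes) and 1 was higher (7.69%, against 9.99%). Spib, a regulator of plasmacytoid dendritic cells, fell at least 33.3-fold and Tcf4 fell from 4075 and 4411 to 394 and 379, while the lectin Clec10a rose 5.92-fold.

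Of 7 eosinophil genes 1 was higher (14.3%, against 9.99% of all genes) and 2 were lower (28.6%, against 13.2%). Of the 7, 6 lay below the floor on both replated arrays. The summed level of the list was 102.5 to 117.8 on replated arrays and 436 to 562 in KO LSK. Prg2, the major basic protein, read 362 and 89.05 against 8.72 and 8.09 and did not pass without KO LSK replicate 1 or either replated array (adjusted p up to 0.0695). Siglecf fell from 106 and 279 to 9.89 and 9.40 (adjusted p = 0.000505). Il5ra was higher at 38.3 and 39.6. It was not past the threshold without KO LSK replicate 2 or either replated array, nor with WT LSK as the reference. Of 13 stromal and endothelial genes 1 was higher (7.69%, against 9.99% of all genes) and 2 were lower (15.4%, against 13.2%), and their summed level was 962 to 1064 in KO LSK and 926 to 947 in replated cells. These arrays measure bulk RNA, so fewer cells of a type and less RNA per cell cannot be told apart.

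Lymphoid priming genes, which multipotent progenitors express at low level before commitment, were lower for 16 of 20 measured and higher for 0 (median -2.88). Dntt, the terminal transferase of early lymphocytes, fell from 4422 and 3731 to 13.05 and 14.6 (-8.20 ± 0.54, adjusted p = 8.01e-06). Mef2c, a factor of lymphoid progenitors, fell 113-fold and Pou2af1, a B cell coactivator, at least 36.4-fold. Ikzf1, the Ikaros factor needed for lymphoid fate, did not pass (0.07 ± 0.12, adjusted p = 0.78). Transcripts of antibody-forming cells were among the largest falls: Igk went from 8500 and 10129 to 11.6 and 16.8, Jchain from 5057 and 5766 to 17.9 and 14.2, and Igkv15-103 from 959.5 and 3259 to 7.43 and 8.78. For Igk, 1 of 3 other probe sets was above the floor and 0 fell at p below 0.05. The call ended without suffixed probe sets.

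These transcripts went with other B, T and NK cell genes, of which 6 of 18 were lower and 1 higher. Ighm, the IgM heavy chain, read 3796 and 5670.5 in KO LSK and 103 and 81.8 in replated cells. Its call also ended without suffixed probe sets. Cd79b fell from 804 and 765 to 29.2 and 21.0. The summed level of the list was 5193 to 7357 in KO LSK, 5352 to 6542 in WT LSK and 549 to 651 in replated cells, while Pax5 and Cd22 were below the floor on all 4 arrays. The part of B lineage cells in the KO LSK sort in these falls was not tested. Prf1, perforin, was the member that was higher, with adjusted p = 0.0451. Its call ended without KO LSK replicate 1 or either replated array. It also ended with the 4 arrays alone, a replicate block or WT LSK as the reference.

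Antigen presentation genes of MHC class II were lower for 8 of 9 and higher for 0 (median -3.87). Cd74, the invariant chain, fell from 2734 and 1465 to 28.6 and 29.9 (-6.10 ± 0.52, adjusted p = 4.27e-05). H2-DMb2 read 1792 and 1360 against 16.5 and 33.3 and H2-Eb1 read 1383 and 897 against 20.4 and 23.3, with 1 replated array below the floor for each. Ciita, the master regulator of the class, was near the floor in both groups (29.9 and 18.2, then 19.8 and 20.9) and did not pass. With suffixed probe sets left out, 5 of the list were lower, but members with no others, such as Cd74, then had no value.

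Erythroid priming genes were lower for 10 of 20 measured and higher for 0 (median -1.43). Car1, the carbonic anhydrase of early erythroid cells, fell from 2164 and 3131 to 24.4 and 23.3, and Hemgn from 1839 and 2223 to 46.8 and 54.3 (-5.33 ± 0.20, adjusted p = 1.67e-07). Aqp1, the water channel of red cells, fell 26.8-fold with replated replicate 2 below the floor. Epor, the erythropoietin receptor, did not pass (0.79 ± 0.25, adjusted p = 0.0565).

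Megakaryocyte and platelet genes split into both directions, 6 of 19 higher and 10 lower (median -0.67), and their summed level was 9709 to 10122 in KO LSK and 20632 to 21253 in replated cells. Selp, the adhesion receptor of platelet granules, fell from 1706 and 1469 to 13.6 and 15.6 (at least 72.9-fold). Mmrn1, a factor V carrier, fell at least 33.4-fold and Ppbp, a platelet chemokine, at least 6.09-fold. Itgb3 and Itga2b, the beta and alpha chains of the platelet fibrinogen receptor, went from 279 and 352 to 3492 and 3511 and from 365 and 223 to 1696 and 1892. Gp5 rose 7.38-fold. Vwf, the von Willebrand factor, read 225 and 82.0 against 1678 and 1563 (adjusted p = 0.0146) and did not pass without KO LSK replicate 2 or either replated array (up to 0.0831). The number lower was 6 without KO LSK replicate 2, 5 without replated replicate 2 and 6 with the 4 arrays alone.

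Among lineage transcription factors 8 of 36 were higher and 13 lower (median -0.18). Gata2, which is needed by stem cells and mast cells, was high in KO LSK (6630 and 7279) and higher in replated cells (13222 and 12824), a rise of 0.91 ± 0.14 (adjusted p = 0.00149). Mitf, the microphthalmia factor of mast cells and melanocytes, rose from 1249 and 1302 to 7097 and 7323 (2.50 ± 0.36, adjusted p = 0.00126). Id2, an inhibitor of E proteins, rose from 432 and 763 to 6508 and 7299. Runx3 was higher too (1.43 ± 0.32, adjusted p = 0.0127), but not past the threshold without KO LSK replicate 1 or either replated array (up to 0.0809).

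Cebpa, which drives granulocyte and monocyte fate, fell from 4228 and 3631 to 62.7 and 75.8 (-5.83 ± 0.14, adjusted p = 1.65e-08), while every sorted array held it at 3631 or more. Irf8, a monocyte and dendritic cell factor, fell from 340.0 and 386 to 13.7 and 9.52, and Irf4 from 801 and 1073 to 17.7 and 14.9. Spi1, which encodes PU.1, read 130 and 161 against 131 and 126 (-0.17 ± 0.18, adjusted p = 0.629). Myb, a progenitor factor, stayed at 8353 and 8827 in replated cells (-0.19 ± 0.11, adjusted p = 0.31). Without replated replicate 2 the counts of this list were 5 higher and 7 lower, and with WT LSK as the reference 8 were lower.

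**Figure D4:**
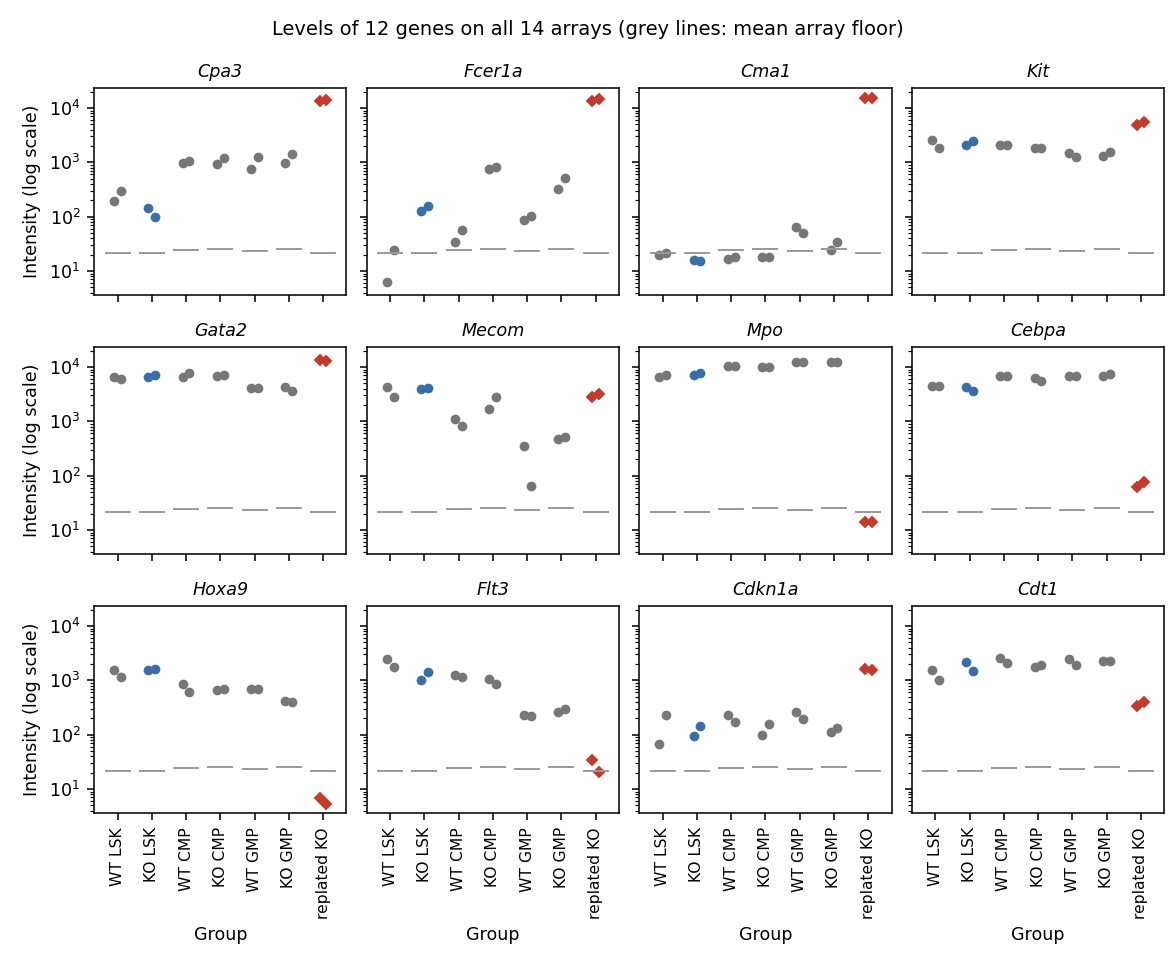
Intensity (log scale) of 12 genes on all 14 arrays in 7 groups, 2 points per group, with the group's mean array floor as a grey line. Replated KO arrays hold the highest values of Cpa3, Fcer1a, Cma1, Kit, Gata2 and Cdkn1a and the lowest of Mpo, Cebpa, Hoxa9, Flt3 and Cdt1. Their Mecom values (2805 and 3155) lie near those of the 4 LSK arrays (2844 to 4255) and of KO CMP replicate 2 (2811).

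Of 37 measured DNA replication genes 28 were lower and 0 higher (median -1.44), whereas 8 of 29 mitosis and spindle genes were lower, 0 were higher and 21 did not pass (median -0.49). The difference between these lists was not tested. Pole, the leading-strand polymerase, fell from 492 and 606 to 77.9 and 80.7. Cdt1, which licenses origins, fell from 2220 and 1495 to 335 and 399 (-2.32 ± 0.26, adjusted p = 0.000252), and Gins1 fell 4.98-fold. Cdk1, the mitotic kinase, fell from 2951 and 2072 to 947 and 945. Mki67, the proliferation marker, read 965 and 1122 against 701 and 646 (-0.63 ± 0.50, adjusted p = 0.472).

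Top2a was lower at its brightest probe set (-0.92 ± 0.16, adjusted p = 0.00332). Its brightest unsuffixed probe set was far dimmer, at 50.6 and 55.8 in KO LSK and 91.2 and 58.4 in replated cells. There the difference was 0.46 ± 0.56 (adjusted p = 0.668). The mitosis count was 2 without replated replicate 1 and without replicate 2, 5 without KO LSK replicate 1 and without replicate 2, 1 with the 4 arrays alone and 13 with WT LSK as the reference. Aurka passed (adjusted p = 0.0345) but not without KO LSK replicate 2 or either replated array (up to 0.199). Of the 29 mitotic genes 0 lay below the floor on both replated arrays.

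Of 11 CDK inhibitor and RB family genes 5 were higher, 1 was lower and 5 did not pass (median 0.19). Cdkn1a, which encodes p21, rose from 95.55 and 144 to 1607 and 1525 (3.74 ± 0.50, adjusted p = 0.000726), and the 12 sorted arrays spanned 67.9 to 263. Cdkn2a, the Ink4a/Arf gene, rose from below the floor (17.6 and 10.85) to 140 and 106 (at least 5.66-fold), and Rb1 from 763 and 583 to 2906 and 4058. Cdkn1b, which encodes p27, did not pass (-0.29 ± 0.21, adjusted p = 0.44). Rbl1 was lower (-0.73), a call that ended without KO LSK replicate 1 or replated replicate 2 (adjusted p up to 0.0849). With suffixed probe sets left out, 3 of the list were higher, but Cdkn2a, which has no other, then had no value.

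Targets of p53 were higher for 9 of 17 measured genes and lower for 1 (median 0.81). Zmat3, an RNA-binding regulator of splicing, rose from 205 and 284 to 3071 and 3123 (3.68 ± 0.62, adjusted p = 0.0028), and Phlda3, an inhibitor of Akt, from 33.5 and 26.4 to 176 and 239. Btg2 fell from 362 and 170 to 63.15 and 68.3 (adjusted p = 0.00656, and 0.0612 with the 4 arrays alone). Without replated replicate 2, 5 of the list were higher. In the BCL2 family 3 of 14 were higher and 1 lower, and without replated replicate 2 the number higher was 1. Bcl2, the survival factor, rose from 550.4 and 717 to 2340 and 1904 (1.75 ± 0.26, adjusted p = 0.00136). Pmaip1, the death gene Noxa, rose from 98.2 and 51.7 to 408 and 468, with adjusted p = 0.0553 without replated replicate 2. Bok fell 5.71-fold, and Mcl1 did not pass (0.02 ± 0.12).

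Among genes of DNA methylation and its removal, the pathway in which Tet2 acts, 11 of 24 measured were lower and 1 higher (median -0.52). Tet1, a relative of Tet2, fell from 481 and 869 to 23.1 and 40.45 (-4.40 ± 0.45, adjusted p = 0.000136). Tet3, the other relative, read 314 and 121 against 316 and 191 and did not pass (0.33 ± 0.46, adjusted p = 0.71). Dnmt3b, a de novo methyltransferase, fell from 1886 and 2341 to 96.7 and 207 (-3.89 ± 0.30, adjusted p = 2.51e-05). Dnmt3a did not pass (-0.52 ± 0.28, adjusted p = 0.27), and Dnmt1, the maintenance enzyme, was lower by a smaller step (-0.52 ± 0.13, adjusted p = 0.021). Bcat1, an enzyme that uses alpha-ketoglutarate, the cofactor of Tet enzymes, fell at least 21.8-fold. That call ended with suffixed probe sets left out. Mbd1 was higher (adjusted p = 0.0306), but not without any 1 of the 4 arrays (up to 0.157). With the 4 arrays alone 7 of the list were lower, and with suffixed probe sets left out 6 were. Dnmt3b, which has only suffixed probe sets, had no value in the latter setting. Without replated replicate 2 fewer of the list were lower as well.

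Interferon-stimulated genes were lower for 21 of 39 measured and higher for 1 (median -1.375). Iigp1, an interferon-inducible GTPase, fell from 818 and 578 to 7.10 and 9.84 (at least 31.6-fold). Xaf1 read 662 and 242 against 9.79 and 14.03, and Gbp2 read 748 and 478.5 against 24.6 and 17.3 (-4.86 ± 0.31, adjusted p = 5.66e-06). In WT LSK their mean levels were 631, 327 and 354. The LSK mice had received pIC, which induces interferon, 4 weeks before the sort, and the time since injection of the replated cells is not given, so the part of pIC was not tested. Ifitm1, a membrane protein of the family, was the member that was higher (0.64 ± 0.19, adjusted p = 0.0464). Its call ended without KO LSK replicate 2 or either replated array. It also ended with the 4 arrays alone, a replicate block, quantile normalization, median centring or WT LSK as the reference.

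Of 18 measured genes of cholesterol synthesis and uptake 12 were higher and 0 lower, with a median of 1.67. Lss, lanosterol synthase, rose from 30.7 and 53.25 to 847 and 842 (4.39 ± 0.59, adjusted p = 0.000784). Msmo1 and Cyp51, which remove methyl groups from the sterol ring, rose from 331 and 265 to 2583 and 2488 and from 155 and 305 to 1480 and 1459. Idi1, which acts early in the isoprenoid steps, rose from 997.5 and 842 to 4415 and 4669. Srebf2, the transcription factor of the pathway, did not pass (-0.52 ± 0.16, adjusted p = 0.0556).

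Lysosomal genes were higher for 16 of 33 measured and lower for 4 (median 0.66). Ctsd, the aspartic protease of lysosomes, rose from 900.3 and 1023 to 5438 and 5637 (2.53 ± 0.14, adjusted p = 2.3e-06), and Ctsa from 392 and 448 to 1399 and 1334, although the mean of the probe sets of Ctsa did not pass (0.91, adjusted p = 0.164). Arsb, an arylsulfatase that degrades dermatan sulfate, fell from 392 and 397 to 8.49 and 4.92, and Ctsh fell at least 13.5-fold. Ctss and Ctsl fell as well, and on the replated arrays cathepsins S and H lay below the floor and cathepsin L on 1 of 2, while cathepsins D, B, A and C were higher. With the 4 arrays alone 9 of the list were higher.

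In glycolysis and the hypoxia response, 8 of 21 genes were higher (38.1%, against 9.99% of all genes) and 3 lower (14.3%, against 13.2%), with a median of 0.53. Pfkp, a phosphofructokinase, rose from 302 and 340 to 1155 and 1297 (1.93 ± 0.30, adjusted p = 0.00175). Pdk1, which keeps pyruvate out of mitochondria, fell from 4958 and 4202 to 445 and 415 (-3.41 ± 0.13, adjusted p = 2.29e-07), and Egln3, a prolyl hydroxylase of hypoxia-inducible factor, from 654 and 166 to 3.81 and 5.27. The number higher was 5 without replated replicate 1 and 4 without replicate 2. Of 20 genes of the amino acid and ER stress response 8 were higher and 3 lower. Phgdh, the first enzyme of serine synthesis, fell from 2852 and 1964 to 60.9 and 59.6 (-5.30 ± 0.22, adjusted p = 4.13e-07). Slc3a2, the heavy chain of amino acid transporters, rose from 804 and 1219 to 4388 and 4460, and 5 of the list were higher without KO LSK replicate 2 or either replated array.

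**Figure D5:**
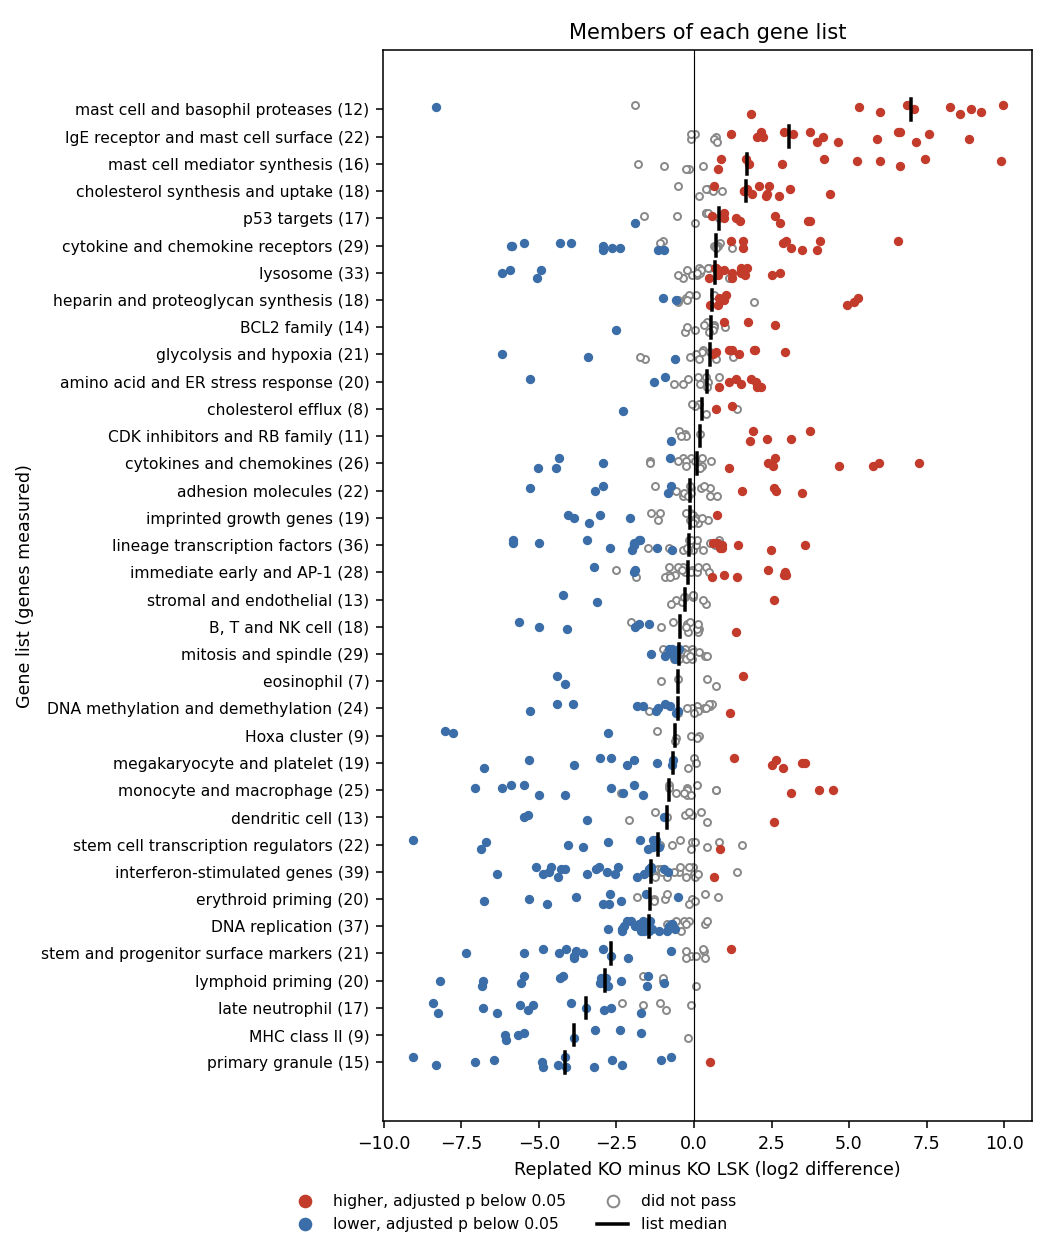
Log2 difference, replated KO minus KO LSK, of each measured member of 36 gene lists, ordered by the list median (black bar), with red and blue points for members higher and lower at an adjusted p below 0.05. The mast cell lists lie at the top, with medians of 6.98, 3.05 and 1.72, and the primary granule, MHC class II and late neutrophil lists at the bottom, with -4.15, -3.87 and -3.47.

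Among the other largest falls, Adgrl4, an adhesion G protein-coupled receptor, went from 5380 and 5750 to 8.27 and 10.5 (at least 256-fold). Aff3, a nuclear factor of lymphoid cells, fell at least 238-fold, Dpp4, a surface peptidase, at least 205-fold, and Gja1, a gap junction connexin, at least 92.9-fold. Kbtbd11 fell at least 169.6-fold at its brightest probe set, while of 3 others 1 was above the floor and 0 fell at p below 0.05. The mean level of each of these 5 genes in KO CMP and KO GMP was 812 or more.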

How the data were processed

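RNA was measured on 14 Affymetrix Mouse 430 2.0 arrays, 2 per group in 7 groups. The authors deposited 1 table of probe set intensities on a linear scale, made with RMA per the submitters' processing notes, and no version is stated. This method sets all arrays to a common distribution, so a shift of total RNA per cell would not show. Log2 of the deposited intensity was taken with no pseudocount. A mean per group was fitted to all 14 arrays in R 4.3.3 with limma 3.58.1 (lmFit and eBayes, with 2.02 prior and 7 residual degrees of freedom). P-values were adjusted by Benjamini-Hochberg over 45037 probe sets without the 64 controls, and an adjusted p below 0.05 was called. The fit was tested on simulated data.

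Gene symbols came from GEO's platform annotation, which gave 1 gene for 34945 probe sets, several for 932 and none for 9160. Each gene was represented by whichever of its probe sets had the highest mean on the 14 arrays. The floor of an array was its highest bacterial control, and 4609 autosomal genes lay below it on all 4 arrays compared. Precision is limited by 2 arrays per group, and no scan date or slide was used.

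The members and gene lists were chosen with earlier results of these data known. Genes named were the 15 largest rises and 15 largest falls whose arrays did not overlap, up to 3 rises and 3 falls per list among those past the threshold, and a set of followed genes, with X, Y and clone names left out. Chosen after their values were seen were Mcpt8, Mcpt1, Gzme, Gzmd, Gzmg, Gzmn, Gzmf, Gzmc, Fcer1g, Enpp3, Cd226, Hdc, Slc18a2, Hpgds, Ptgs2, Il4, Il13, Il3, Il3ra, Elane, Cd14, Adgre1, Ikzf1, Pax5, Cd22, Ciita, Epor, Myb, Cdkn1b, Mcl1, Tet3, Dnmt3a, Dnmt1, Idi1, Srebf2, Ctsl, Ctsb, Ctsc, Fos, Egr1 and Abca1. Promoters were RefSeq's, GRCm38.p6, matched by symbol. Alternatives covered the arrays in the fit, a replicate block, normalization, pseudocount, a filter on dim probe sets, the choice of probe set, a 2-fold minimum, the reference group and each array left out. Raising values to the floor was added after seeing the data.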

Additional observations from a re-analysis of the deposited data

How the results depend on the processing

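Against 1739 genes higher and 2298 lower, the counts were 1219 and 1611 with the 4 arrays alone and 1764 and 2301 after quantile normalization. They were 1791 and 2223 after median centring and 1853 and 2306 with 16 added before the log. Removing dim probe sets gave 1781 and 2430, and 1 probe set per gene in the fit gave 1891 and 2486. Without suffixed probe sets the counts were 1561 and 2007, among the genes that have others. They were 2120 and 2387 with the mean of a gene's probe sets. A 2-fold minimum gave 1269 and 1804, WT LSK as the reference 1769 and 2330, and values raised to the floor 1695 and 2262. Leaving out 1 array gave 1052 to 1533 higher and 1432 to 2288 lower. With the replicate number as a block the counts were 1671 and 2246, and the numbers did not pair the samples (correlations of replicate differences from -0.078 to 0.075).

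Of 165 named genes past the threshold, 129 kept direction and call under every alternative in which they were measured. The call held without each array for 142. Genes with suffixed probe sets only, such as Cma1, Mcpt4 and Cd74, had no value where those were left out. Reversed were Gnas (-0.18) and Extl3 (0.081) with the mean of a gene's probe sets and Top2a (0.46) without suffixed probe sets. The cause was not tested. Signal over background limits the 4609 genes below the floor on all 4 arrays, whose levels have no order.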

Other observations

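Immediate early and AP-1 genes were higher for 7 of 28 measured and lower for 3 (median -0.19). The share lower was 10.7%, against 13.2% of all genes, and the share higher lay above 9.99%. Fosl2, an AP-1 subunit, rose from 300.2 and 499 in KO LSK to 2947 and 2908 in replated cells, and Nr4a3, an orphan nuclear receptor, from 15.99 and 16.7 to 174 and 91.9. Tnfaip3, a brake on NF-kB signalling, rose from 123 and 159 to 1034 and 1091. Fos (-0.36 ± 0.38) and Egr1 (-0.81 ± 0.38) did not pass. Without KO LSK replicate 1, replated replicate 1 or replated replicate 2, 4 of the list were higher.

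Of 22 adhesion molecules 4 were higher and 5 lower (median -0.11). Vcam1, a ligand of integrins, fell from 281 and 335 to 6.90 and 8.75 at its brightest probe set. Its 2 others did not pass (-1.07 ± 0.38, adjusted p = 0.0878, and -0.44 ± 0.21, adjusted p = 0.198). In replated cells they read 31.4 and 34.4, and 26.7 and 26.3, above the floor. Itgal, an integrin chain of leukocytes, fell from 190.5 and 213 to 26.6 and 18.5. Pecam1, an endothelial and leukocyte adhesion protein, rose from 134 and 101 to 679.8 and 702. Without KO LSK replicate 2 or replated replicate 2, 3 of the list were lower.

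Cholesterol efflux genes were higher for 2 of 8 and lower for 1 (median 0.27). Npc1, which moves cholesterol out of lysosomes, rose from 259.5 and 223 to 577 and 550.3, and Abca1, the efflux pump, did not pass (0.16 ± 0.34).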
